A study of Homo sapiens with 6 samples.

Results

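The 40 genes described here encode the machinery of macroautophagy, and all 40 were measured in SKOV3, an established human ovarian carcinoma cell line. They were chosen by gene symbol from a fixed list, matched to 62 of the 47231 probes of an Illumina BeadArray through the platform's probe annotation, out of 20046 named genes. Genes with more than 1 probe are represented by the brightest of them. Cells had received a control siRNA (sicontrol, 3 samples) or an siRNA against the long non-coding RNA NRCP (siNRCP, 3 samples) for 48 h, with no other agent or genotype named. RNA of each sample was read on 1 array, and the question was which transcripts differ after NRCP is silenced. The sequence of the siRNAs and whether the replicates were separate cultures are not stated, so each p-value reflects the spread among these samples alone, and that spread may be technical. NRCP had no named probe, and the knockdown itself was not checked here.

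Macroautophagy encloses cytoplasm in a double membrane, the autophagosome, and delivers it to the lysosome. The ULK kinase complex starts the process when nutrients are short, a class III phosphatidylinositol 3-kinase marks the site, and WIPI, ATG2 and ATG9 proteins bring lipid to the growing membrane. A pair of conjugation reactions resembling ubiquitination then joins ATG12 to ATG5 and attaches proteins of the ATG8 family (LC3 and GABARAP) to the membrane, where cargo receptors such as p62 bind them. Ovarian carcinoma cells use the pathway under nutrient and drug stress, and much of its control lies in protein modification that an RNA measurement does not see.

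Values below are log2 bead intensities after background correction and quantile normalization. Because bead probes differ in brightness, levels are compared between samples and not between genes. The 6 arrays had mean raw intensities of 373 to 563, the lowest on siNRCP array 2, and 39.6% to 43.3% of all probes exceeded a background level set at the 95th percentile of 457 olfactory receptor probes. Of the 11 epithelial and ovarian carcinoma markers 10 were above that level, while WT1 was above it on 0 arrays. Of the 4 measured leukocyte markers 0 were above it, of the 5 fibroblast markers 2 (COL1A1 and COL1A2, at 6.37 to 6.69 on the 6 arrays), and of the 3 endothelial markers 1 (PECAM1, at 6.09 to 6.65). siNRCP array 1 stood apart from the other two of its group. Over the 19609 probes above background its Pearson correlation was 0.935 and 0.946 with siNRCP arrays 2 and 3, but 0.973 to 0.980 with the sicontrol arrays, and arrays 2 and 3 correlated at 0.992 with each other. Results are therefore given with and without it.

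The autophagy genes did not move as a block, and the transcripts that changed pointed in opposite directions. ATG5 and ATG12, which form the conjugate at the core of the lipidation enzyme, fell in siNRCP, and WIPI2, which brings that enzyme to the membrane, rose. ULK1, the initiating kinase, had the largest difference of the 40 at 1.26 ± 0.24 log2 (SE, n = 3 per group), but it missed the threshold (limma adjusted p = 0.057). In limma, with Benjamini-Hochberg adjustment over all 47231 probes and an adjusted p under 0.05 as the threshold, 1 of the 40 genes was higher and 2 were lower. This is 7.5%, where 2.78% of the 20046 named genes passed by the same rule, 1.27% as higher and 1.51% as lower. Among the 37 autophagy genes above background on at least 3 arrays the share was 8.11%, against 4.89% of the 11414 named genes above background, and no test of the list was made. Over all probes 348 passed as higher and 433 as lower, a split that became 43 and 211 under median scaling.

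The median difference over the 40 genes was -0.03 log2, against 0.01 over all named genes, with 19 estimates above 0 and 21 below. Relative to the sicontrol mean, the median of the list was -0.02, -0.08 and -0.06 on siNRCP arrays 1, 2 and 3, and between -0.02 and 0.03 on the sicontrol arrays. Median scaling put the list at -0.25 and all named genes at -0.03. Above background it put the autophagy genes at -0.27, from -0.09, and the named genes at -0.14, from 0.02. The individual genes spread from -1.14 to 1.26. For 14 of the 40 genes the groups of arrays did not overlap, 5 higher and 9 lower (35.0%), while 22.3% of the named genes did not overlap, 11.4% as higher and 10.8% as lower. Among genes above background the shares were closer, at 35.1% of the autophagy genes and 30.8% of all. At an unadjusted limma p under 0.05, 7 were higher and 7 lower, beside 2209 and 1910 of the 20046 named genes. Above background these counts were 6 and 7 of the 37 autophagy genes, beside 2085 and 1784 of the 11414 named genes.

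**Figure D1:**
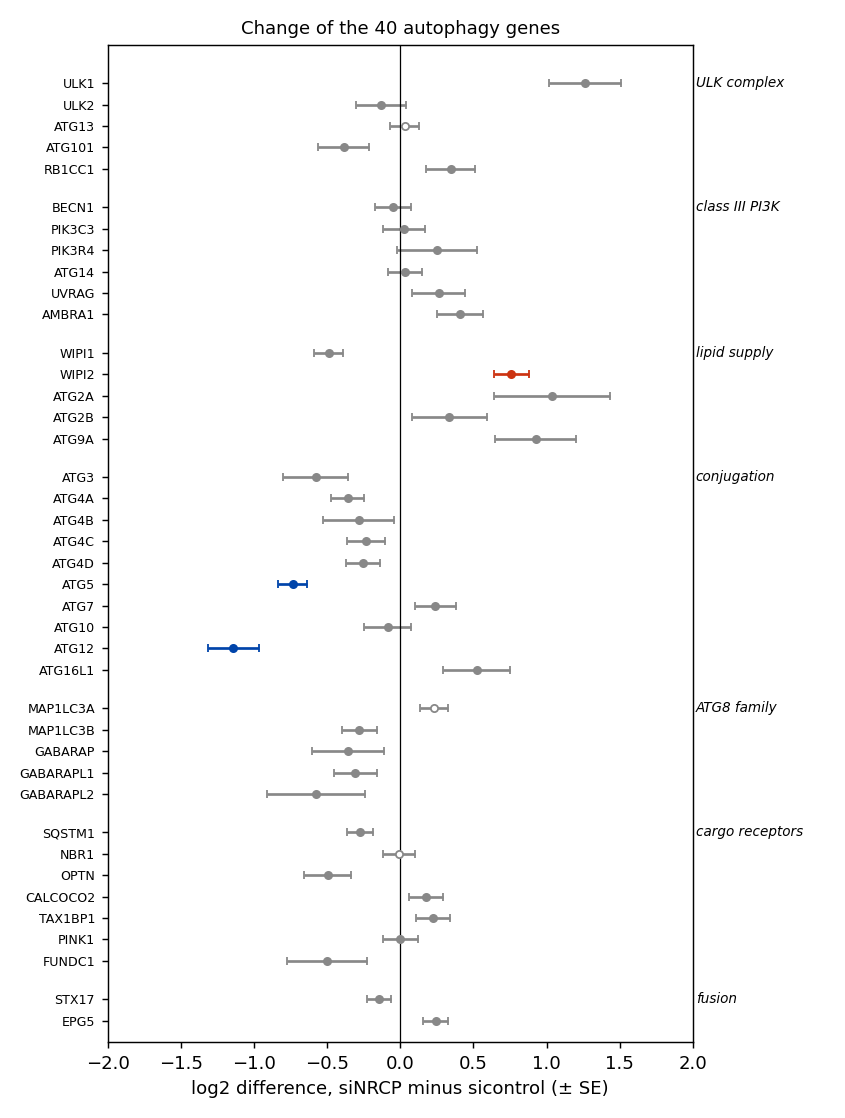
Log2 difference between siNRCP and sicontrol for each of the 40 autophagy genes, 1 probe per gene, grouped by role; points are limma estimates and bars the SE (n = 3 per group). Red marks the gene that passed as higher (WIPI2), blue those that passed as lower (ATG5 and ATG12), grey the rest, and open points the 3 genes not above background on at least 3 arrays; ULK1 lies farthest to the right in grey.

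ATG12 is the ubiquitin-like protein that is joined to ATG5. Its probe ILMN_2188204 read 11.43, 11.49 and 11.62 in sicontrol and 10.79, 10.13 and 10.20 in siNRCP, in the order of arrays 1 to 3 here and below. All siNRCP arrays lay below all sicontrol arrays, with siNRCP array 1 the nearest to them. The transcript fell 2.21-fold, by 1.14 ± 0.18 log2 (SE of 3 against 3 arrays; adjusted p in limma = 0.029). The dimmer probe ILMN_1673898 went the same way, from 7.75, 7.90 and 7.97 to 7.33, 6.79 and 6.89, and fell by 0.87 ± 0.15 log2 (limma adjusted p = 0.040). Both ATG12 probes thus passed and neither group overlapped the other on them.

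ATG5, the acceptor of ATG12, had a single probe (ILMN_1718265). It read 8.56, 8.54 and 8.35 in sicontrol and 7.71, 7.70 and 7.85 in siNRCP, and fell by 0.73 ± 0.10 log2 (1.66-fold; limma adjusted p = 0.019). The 3 siNRCP arrays were close together, with an SD of 0.08, and array 1 was as low as arrays 2 and 3, which was not so for ATG12. Because their groups did not overlap, leaving out any 1 array could not reverse the direction of either gene. Both passed without siNRCP array 1 (ATG5 -0.71, adjusted p = 0.00020; ATG12 -1.35, 5.2e-07). Neither passed without any other single array, where the lowest adjusted p was 0.076 for ATG5 and 0.094 for ATG12; such fits have 1 array fewer.

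ATG16L1, which binds the ATG12-ATG5 conjugate and completes the lipidation enzyme, was not lower. Its brighter probe read 10.23, 9.78 and 9.98 in sicontrol and 9.998, 10.84 and 10.71 in siNRCP, a difference of 0.52 ± 0.23 log2 (limma adjusted p = 0.37), and the second probe read 0.41 ± 0.18 (0.39). On both probes siNRCP array 1 lay within the sicontrol range and arrays 2 and 3 above it. ATG7, the activating enzyme of both conjugation reactions, read 0.24 ± 0.14 (0.54), and ATG10, which transfers ATG12 to ATG5, read -0.09 ± 0.16 (0.89) with a dimmer second probe at -0.41 ± 0.15 (0.29).

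ATG3, the enzyme that transfers ATG8 proteins to lipid, was low on siNRCP arrays 2 and 3. It read 10.14, 10.14 and 10.13 in sicontrol, 10.11 on siNRCP array 1, and 9.17 and 9.40 on siNRCP arrays 2 and 3. The groups did not overlap, but siNRCP array 1 was only just outside the sicontrol arrays, and the difference of -0.58 ± 0.22 log2 did not pass (limma adjusted p = 0.30; second probe -0.20 ± 0.13, 0.56). The ATG4 proteases, which prepare ATG8 proteins for lipidation and later release them, read -0.36 ± 0.11 (ATG4A), -0.28 ± 0.24 (ATG4B), -0.23 ± 0.13 (ATG4C) and -0.26 ± 0.12 (ATG4D), with adjusted p from 0.21 to 0.70. Of the 10 conjugation genes, 8 had an estimate below 0, with a median of -0.27 (9 and -0.45 under median scaling), and 2 passed. Of the 11414 named genes above background 5539 were below 0, and 7426 under median scaling, which moved genes downward in general.

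Of the 5 genes that supply lipid to the growing membrane 4 had an estimate above 0, also under median scaling, and 1 passed. WIPI2, a reader of phosphatidylinositol 3-phosphate that recruits ATG16L1, read 7.24, 7.16 and 7.05 in sicontrol and 7.68, 8.01 and 8.03 in siNRCP on probe ILMN_2321292. Every siNRCP array was above every sicontrol array, and the transcript rose 1.69-fold, by 0.76 ± 0.12 log2 (SE of 3 against 3 arrays; adjusted p in limma = 0.032). A second WIPI2 probe lay at background on all arrays and read 0.07 ± 0.13. The WIPI2 call was kept without siNRCP array 1 (0.87, adjusted p = 2.2e-05) and lost without any other single array, where the adjusted p was at least 0.12.

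WIPI1, a related reader of the same lipid, differed the other way. It read 7.22, 7.02 and 7.10 in sicontrol against 6.69, 6.51 and 6.69 in siNRCP, a difference of -0.49 ± 0.10 log2 just outside the threshold (limma adjusted p = 0.067). The groups did not overlap for either WIPI gene, and all 3 siNRCP arrays of each lay on 1 side of sicontrol.

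ATG9A, a membrane protein whose vesicles seed the autophagosome, read 8.94, 8.52 and 8.62 in sicontrol and 8.94, 9.94 and 9.97 in siNRCP. ATG2A, which carries lipid into the growing membrane, read 8.84, 8.36 and 8.41 in sicontrol and 8.58, 10.19 and 9.96 in siNRCP. For both genes siNRCP arrays 2 and 3 were over 1 log2 unit above every sicontrol array, while array 1 was level with the highest or within the range. Differences of 0.92 ± 0.28 (ATG9A; limma adjusted p = 0.18) and 1.04 ± 0.40 (ATG2A; 0.30) did not pass. The second bright ATG9A probe read 0.49 ± 0.16 (0.22), and ATG2B, the paralogue of ATG2A, read 0.34 ± 0.26 (0.66).

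ULK1 had a pair of bright probes in close accord. Probe ILMN_1705144 read 10.41, 10.46 and 10.42 in sicontrol and 11.07, 12.08 and 11.92 in siNRCP, and ILMN_1735052 read 10.27, 10.29 and 10.21 against 10.83, 11.92 and 11.54. The sicontrol arrays lay within 0.1 log2 units of each other on both probes, every siNRCP array was above them, and siNRCP array 1 was the lowest of its group. The differences were 2.40-fold and 2.26-fold, and neither probe passed (1.26 ± 0.24, limma adjusted p = 0.057; 1.17 ± 0.25, 0.073), and the last of its 3 probes lay at background. ULK1 passed with a smaller background offset (adjusted p = 0.032), under cyclic loess (0.040), with array weights (0.00026) and without siNRCP array 1 (1.3e-07), and in 0 of the other settings, with adjusted p between 1.3e-07 and 0.28 over all of them.

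With all arrays no gene of the ULK complex passed, and differences between ULK1 and its partners were not tested. ULK2, the related kinase, read -0.13 ± 0.17 log2 (limma adjusted p = 0.82), and the scaffold gene RB1CC1, which encodes FIP200, read 0.34 ± 0.17 (0.43) and passed as higher with array weights (0.45, adjusted p = 0.018) and without siNRCP array 1 (0.53, 0.0019). ATG101, which stabilises ATG13, read 9.46, 9.48 and 9.55 in sicontrol and 9.50, 9.01 and 8.81 in siNRCP, a difference of -0.39 ± 0.17 (0.38). Here again siNRCP array 1 lay with sicontrol and the other siNRCP arrays below. ATG13, the regulatory subunit, was above background on 1 array of each group (0.03 ± 0.10, 0.94), so dim that a fall in particular could go undetected.

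**Figure D2:**
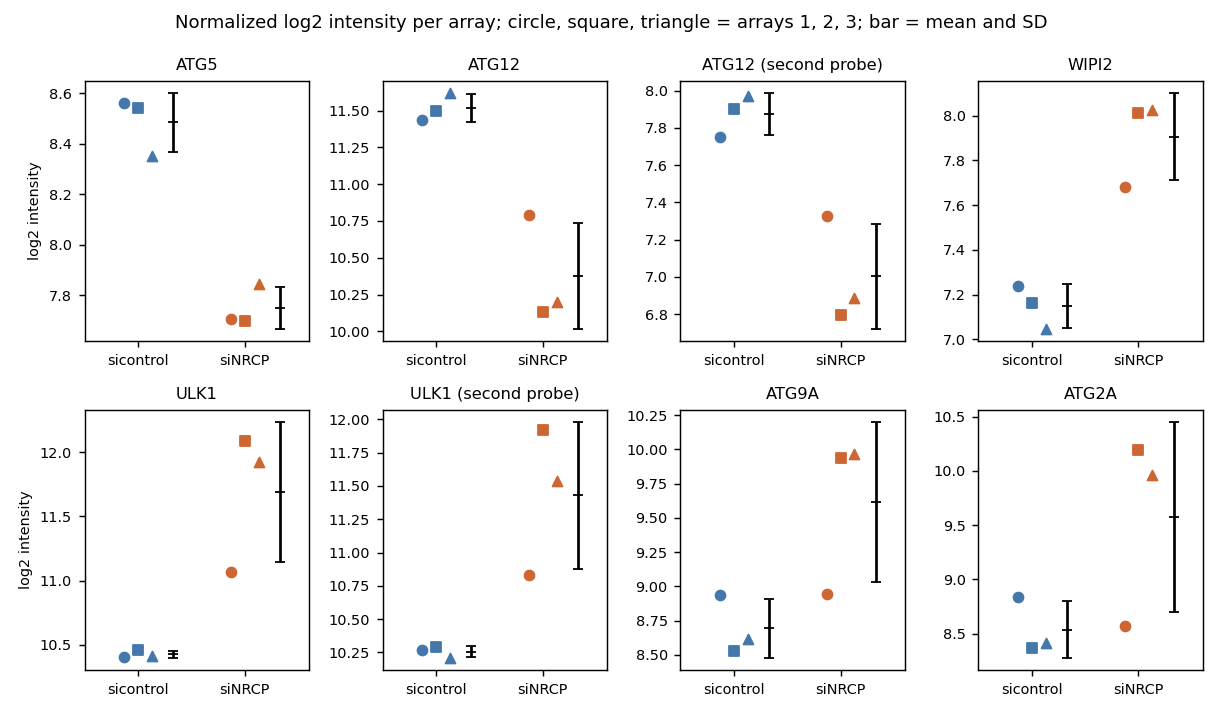
Normalized log2 intensity on each array for ATG5, ATG12 (2 probes), WIPI2, ULK1 (2 probes), ATG9A and ATG2A; each panel has its own axis, which does not start at 0, the symbols mark arrays 1 to 3 of each group, and the black bars give the mean and SD (n = 3). siNRCP array 1 (circle) lies with the group for ATG5, between the groups or nearer to sicontrol for ATG12, WIPI2 and ULK1, and with sicontrol for ATG9A and ATG2A.

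With all arrays, the class III phosphatidylinositol 3-kinase complex had the smallest differences of the large role groups. BECN1, its Beclin 1 subunit, read 9.19, 9.40 and 9.40 in sicontrol and 9.50, 9.10 and 9.24 in siNRCP, a difference of -0.05 ± 0.13 log2 (limma adjusted p = 0.92). The catalytic subunit PIK3C3 read 0.02 ± 0.14 (0.97) and ATG14, which directs the complex to autophagy, 0.03 ± 0.12 (0.95). The regulatory subunit PIK3R4 read 0.25 ± 0.27 (0.78), UVRAG, which directs the kinase to endosomes, 0.26 ± 0.18 (0.61), and AMBRA1, an activator of Beclin 1, 0.41 ± 0.16 (0.30). The groups overlapped for all 6 genes, and 0 passed. The group's median of 0.14 turned to -0.08 under median scaling.

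Of the 5 ATG8 family genes 4 had an estimate below 0, and 0 passed. GABARAPL2 read 10.61, 11.04 and 10.81 in sicontrol and 11.09, 9.76 and 9.89 in siNRCP. Its siNRCP array 1 was above every sicontrol array while arrays 2 and 3 were below them all, so that the difference of -0.58 ± 0.33 log2 is an average of opposite readings (limma adjusted p = 0.52); the second probe read -0.08 ± 0.30 (0.95). GABARAP (-0.36 ± 0.25, 0.61) was above background on 3 sicontrol arrays and 1 siNRCP array, and GABARAPL1 read -0.31 ± 0.15 (0.43). MAP1LC3B, which encodes the LC3B protein used as the standard autophagosome marker, read 9.75, 9.79 and 9.65 against 9.53, 9.22 and 9.62. Its groups did not overlap, but siNRCP array 3 lay 0.04 log2 below the nearest sicontrol array, and the difference of -0.28 ± 0.12 did not pass (0.37). MAP1LC3B2 is a near-identical copy, and any signal from it on the MAP1LC3B probe was not separated. The 2 probes named for MAP1LC3B2 were above background on 1 and 0 arrays. MAP1LC3A was above background on 0 sicontrol and 2 siNRCP arrays (0.23 ± 0.09, 0.34).

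Of the 7 cargo receptor genes 0 passed. SQSTM1, which encodes p62, the adaptor for ubiquitinated cargo, read 12.70, 12.56 and 12.56 in sicontrol and 12.38, 12.26 and 12.35 in siNRCP. OPTN, which encodes optineurin, read 11.11, 10.94 and 10.81 against 10.14, 10.53 and 10.70. All siNRCP arrays lay below all sicontrol arrays for both genes, with siNRCP array 1 the lowest for OPTN. Neither difference passed (SQSTM1 -0.27 ± 0.09, limma adjusted p = 0.22; OPTN -0.50 ± 0.16, 0.21). TAX1BP1 (0.22 ± 0.12, 0.47; second probe 0.24 ± 0.10, 0.37) and CALCOCO2, which encodes NDP52 (0.18 ± 0.12, 0.58), had small positive estimates that turned negative under median scaling (-0.05 and -0.03).

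The kinase gene PINK1, which tags damaged mitochondria for removal, read 10.77, 10.53 and 10.48 in sicontrol and 10.48, 10.54 and 10.77 in siNRCP, a difference of 0.00 ± 0.12 log2. FUNDC1, a receptor on the outer mitochondrial membrane, read 8.65, 8.83 and 8.82 against 8.94, 7.77 and 8.08. Array 1 was above sicontrol and arrays 2 and 3 below it for FUNDC1, and the difference of -0.50 ± 0.27 did not pass (limma adjusted p = 0.49). NBR1 was above background on 0 arrays. The fusion genes STX17, a SNARE of the closed autophagosome (-0.14 ± 0.08, 0.52), and EPG5, a tether to the lysosome (0.24 ± 0.09, 0.26; above background on 0 sicontrol and 3 siNRCP arrays), did not pass.

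The number of autophagy genes called went from 3 to 22 without siNRCP array 1, and to 0 without any other single array. For 15 of the 40 genes it lay on the opposite side of the sicontrol mean from both arrays 2 and 3, while all 3 siNRCP arrays were above that mean for 9 genes and below it for 11. Without it, 11 genes were higher and 11 lower in limma (55.0%), 19 of them not called with all arrays. In the same fit 31.3% of all named genes passed (17.0% as higher, 14.2% as lower), and among genes above background the shares were 59.5% of the autophagy genes and 54.1% of all. The 3 calls made with all arrays stood in it in the same direction. That fit reuses the other arrays, and array 1 was singled out on these same values, so it is no separate support. ATG2A (1.54 ± 0.14 log2, adjusted p = 1.3e-06), ATG9A (1.26 ± 0.13, 2.8e-06) and ATG16L1 (0.78 ± 0.13, 0.00028) passed as higher there, and GABARAPL2 (-1.0 ± 0.13, 2.5e-05), ATG3 (-0.86 ± 0.11, 3.0e-05) and FUNDC1 (-0.84 ± 0.12, 7.6e-05) as lower.

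The gap between siNRCP arrays 2 and 3 and array 1 went with gene length. Over the 40 genes, Spearman's rho between the genomic span of a gene and that gap was 0.48, and it was 0.33 between span and the siNRCP minus sicontrol difference. Over the 11405 named genes above background that have a span, the values were 0.42 and 0.22. These are descriptions across genes of shared arrays, which are not independent, so no p is given. Single genes departed from that relation. ATG2A (1.503) and ATG9A (1.01) had the widest gaps upward, although their spans of 22664 and 10257 bases are below the median of 39753.5 over the 40 genes. The widest gaps downward were those of GABARAPL2 (-1.27, span 11503 bases) and FUNDC1 (-1.02, 19221 bases). The gap was 0.07 for ATG5, -0.62 for ATG12 and 0.34 for WIPI2. What part span or array 1 has in any difference was not tested.

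**Figure D3:**
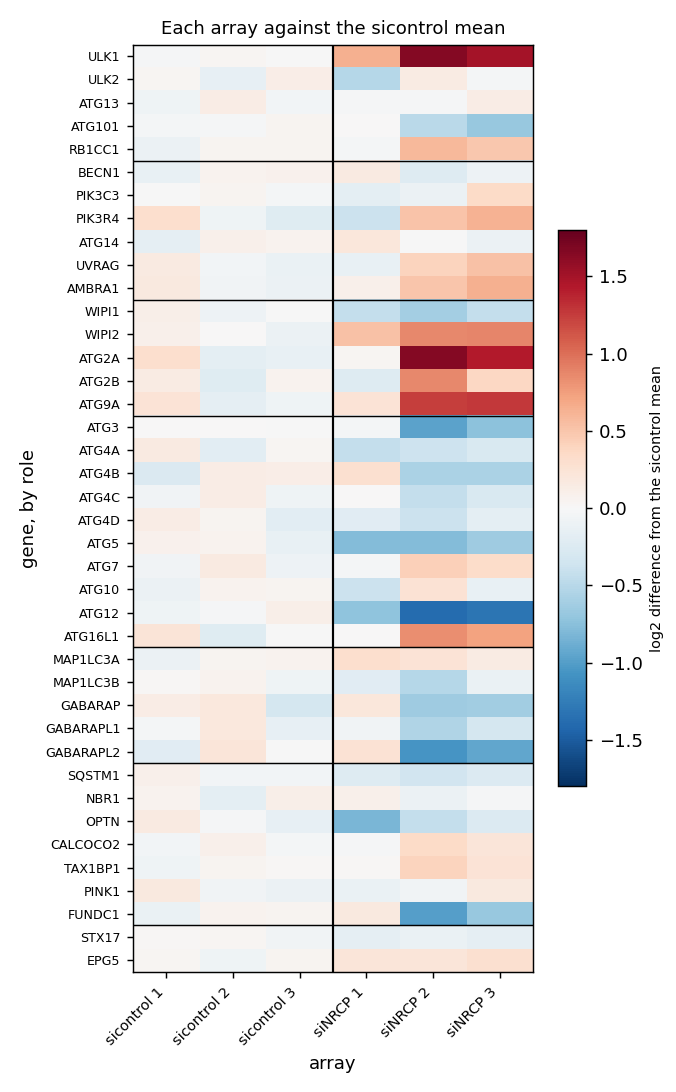
Log2 difference of each of the 6 arrays (columns) from the sicontrol mean for the 40 autophagy genes (rows, black lines between role groups); red is higher and blue lower. Columns siNRCP 2 and siNRCP 3 are alike, column siNRCP 1 is paler or of opposite colour for many genes such as GABARAPL2 and FUNDC1, and ATG5, ATG12, WIPI1, WIPI2 and ULK1 keep 1 colour in all 3.

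Promoter sequences of the genes that passed are shown because autophagy genes are known targets of transcription factors with short, defined sites. TFEB and its relatives bind the E-box CACGTG, ATF4 with its partners binds elements of the type TGATGNAA, and SP1 binds the GC box GGGCGG. The 250 bases before the most upstream start that RefSeq (GRCh38.p14) lists are printed 5′ to 3′ on the gene's strand, for ATG5 at chr6:106325438-106325687 (minus strand), ATG12 at chr5:115841566-115841815 (minus strand) and WIPI2 at chr7:5189983-5190232 (plus strand). Capitals mark matches to any of these motifs on either strand.
ATG5: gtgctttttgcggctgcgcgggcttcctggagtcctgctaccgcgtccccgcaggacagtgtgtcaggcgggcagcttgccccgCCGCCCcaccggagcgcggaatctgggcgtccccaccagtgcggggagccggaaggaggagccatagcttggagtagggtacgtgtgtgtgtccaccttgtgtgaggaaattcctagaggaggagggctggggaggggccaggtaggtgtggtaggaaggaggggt
ATG12: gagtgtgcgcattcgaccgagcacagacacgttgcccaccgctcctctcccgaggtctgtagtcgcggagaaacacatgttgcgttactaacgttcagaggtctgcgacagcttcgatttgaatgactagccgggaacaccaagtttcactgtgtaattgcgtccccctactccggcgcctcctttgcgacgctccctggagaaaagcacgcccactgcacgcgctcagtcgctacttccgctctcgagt
WIPI2: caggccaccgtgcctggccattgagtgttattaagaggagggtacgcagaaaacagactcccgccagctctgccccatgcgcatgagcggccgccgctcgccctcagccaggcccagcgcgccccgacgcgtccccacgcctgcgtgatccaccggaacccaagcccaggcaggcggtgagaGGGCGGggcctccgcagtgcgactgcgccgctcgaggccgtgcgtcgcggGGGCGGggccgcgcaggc

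The GC box was found once in the ATG5 window, on the other strand as CCGCCC, and at 2 places in the WIPI2 window, while ATG12 held none of the 3 motifs. The windows were 66.0%, 57.6% and 72.8% G or C for ATG5, ATG12 and WIPI2. Of the 33 autophagy genes matched to a promoter, 23 (69.7%) held GGGCGG, against 42.2% of 27305 promoters of the same length. Those 27305 were neither limited to genes above background nor matched for G or C content, and what this gap reflects was not tested. CACGTG was in 2 of the 33 (6.06%; ATG3 and ATG14), against 6.46% of all, and TGATGNAA in 0 of the 33, against 3.19%. The 3 motifs do not overlap one another in the printed windows, the motifs were chosen after the expression values were known, and a match is a string of letters, not a bound site.

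Beyond the core machinery, 80 further genes of autophagy were listed and 78 of them measured, 70 above background. Of the 78, 0 were higher and 3 lower in siNRCP (3.85%, against the 2.78% of named genes given above): RETREG1, BNIP3 and DDIT4. Among the 70 above background the share was 4.29%, below the 4.89% of named genes above background. At an unadjusted limma p under 0.05, 10 of the 78 were higher and 7 lower, beside 2209 and 1910 of the 20046 named genes. Above background these counts were 9 and 7 of the 70, beside 2085 and 1784 of the 11414 named genes. The median over the 78 was 0.04 log2.

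RETREG1 (also FAM134B) encodes a receptor that feeds sheets of the endoplasmic reticulum into autophagosomes. Probe ILMN_2387952 read 8.31, 8.55 and 8.41 in sicontrol and 6.76, 6.86 and 6.98 in siNRCP. The 3 siNRCP arrays lay within 0.3 log2 units of each other and over 1 unit below sicontrol, with siNRCP array 1 among them. The transcript fell 2.94-fold, by 1.56 ± 0.10 log2 (SE of 3 against 3 arrays; adjusted p in limma = 0.0033). The dimmest of its 3 probes also fell, by 0.58 ± 0.09 (0.025), but was above background on 0 siNRCP arrays, and the remaining probe read -0.31 ± 0.10 (0.19). The RETREG1 call was lost without sicontrol array 3 (-1.56, adjusted p = 0.064) and kept without any other single array. Of the other 7 genes of autophagy of the endoplasmic reticulum, 0 passed.

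BNIP3, a receptor on the mitochondrial surface that binds ATG8 proteins, read 12.42, 12.33 and 12.32 in sicontrol and 10.75, 10.20 and 10.21 in siNRCP. It fell by 1.97 ± 0.16 log2 (limma adjusted p = 0.0059), with array 1 the highest of its group. The call was lost without sicontrol array 1, 2 or 3 (adjusted p = 0.067, 0.066 and 0.084). Its relative BNIP3L, which encodes NIX, read 11.17, 11.31 and 11.10 against 10.33, 11.47 and 11.43. For BNIP3L, siNRCP array 1 lay below all sicontrol arrays and arrays 2 and 3 above them, so the estimate of -0.12 ± 0.29 (0.92) turned to 0.26 without array 1; its second probe read -0.37 ± 0.16 (0.38).

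DDIT4, an inhibitor of the kinase mTOR, which in turn restrains the ULK complex, read 11.12, 11.69 and 11.14 in sicontrol and 10.45, 10.18 and 10.47 in siNRCP. It fell by 0.95 ± 0.17 log2 (limma adjusted p = 0.047), close to the threshold, and passed in 1 of the 6 fits that left out an array, the fit without siNRCP array 1 (adjusted p = 0.00017; otherwise at least 0.13). TFEB, the transcription factor that switches on lysosomal and autophagy genes, was above background on 1 sicontrol array and 0 siNRCP arrays (-0.17 ± 0.11, 0.60). It too was so dim that a fall in particular could go undetected.

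**Figure D4:**
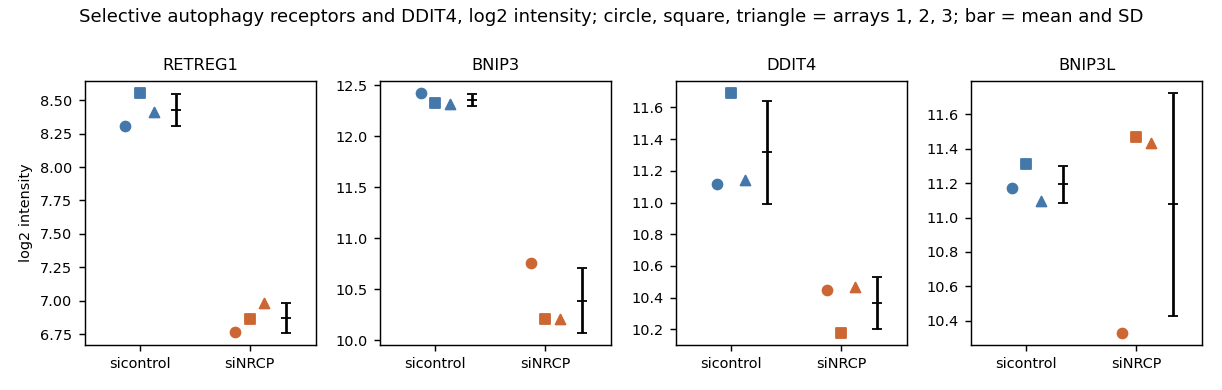
Normalized log2 intensity on each array for RETREG1, BNIP3, DDIT4 and BNIP3L, 1 probe each; panels have separate axes that do not start at 0, symbols mark arrays 1 to 3, and black bars give the mean and SD (n = 3). The groups are apart for RETREG1, BNIP3 and DDIT4, and for BNIP3L siNRCP array 1 lies below sicontrol while arrays 2 and 3 lie above.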

How the data were processed

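The deposited table of bead intensity per probe and array had not been normalized. Per the labels the authors exported it with BeadStudio; its version number is not given in the sources used here. Also deposited was a series matrix, which holds the authors' log2 values; these have the same distribution on each array and differ by at most 0.065 from a log2 and quantile normalization of that table. The intensity table carries no detection p-values, so no detection filter was used.

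Intensities were background corrected with normexp (offset 50), quantile normalized and put on the log2 scale. All 47231 probes were fitted in limma 3.58.1 (R 4.3.3), siNRCP minus sicontrol, no covariate. A single symbol belongs to 30113 probes, several to 8 and none to 17110, and RefSeq held the Entrez identifier of 30074. Every one of the 40 genes is accounted for; of the wider list, genes that passed are named, with BNIP3L and TFEB whatever their values, and CP, the gene beside NRCP, lay at background. The genes and lists were chosen with earlier results of these data known. On simulated data for this comparison (47231 probes, 3 against 3), 11.9% of 67 probes changed 1.5-fold, 64.2% of 67 changed 2-fold and 97.0% of 66 changed 4-fold were recovered, with 3 false calls. The simulated noise was independent for each probe, with no departure shared across an array such as that of siNRCP array 1. These rates may therefore not hold for the real arrays.

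Other settings tried were uncorrected background, an offset of 16, cyclic loess, median scaling, the authors' log2 values, the robust and trend options of eBayes, a block for replicate number, array weights, a filter on dim probes, the mean of a gene's probes, and leaving out each array. The number of arrays limits the precision.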

Additional observations from a re-analysis of the deposited data

How the results depend on the processing

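ATG5, ATG12, WIPI2, ULK1, RETREG1, BNIP3 and DDIT4 kept their direction in all 16 alternative settings each, and the calls rested on the choice of setting. Much of that agreement in direction was fixed in advance. The trend and robust options, the block and the filter on dim probes cannot change an estimate. The mean of probes cannot change it for a gene with a single probe. Leaving out 1 array cannot reverse genes whose groups do not overlap, as was so for each of these. ATG5 and WIPI2 passed in 8 of 16, ATG12 in 7, ULK1 in 4, RETREG1 in 14, BNIP3 in 12 and DDIT4 in 5. The number of autophagy genes higher and lower was 1 and 2 as reported. It was 2 and 2 with an offset of 16, 2 and 3 under cyclic loess, and 0 and 2 with the mean of a gene's probes. The series matrix values gave 1 and 1, and the trend and robust options 1 and 0. Median scaling gave 0 and 0, and array weights 8 and 8. Leaving out 1 array gave 0 to 11 higher and 0 to 11 lower; 22 came without siNRCP array 1 and 0 without any other array. Over all probes, 43 were higher and 211 lower under median scaling, 210 and 259 with trend and robust options, 4187 and 3980 with array weights, and 0 to 4968 and 5 to 4952 without 1 array. In the wider list, array weights gave 23 higher and 11 lower, and leaving out 1 array 0 to 25 and 0 to 12. The cause of these shifts was not tested.

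The median over the 40 genes was -0.063 with array weights, -0.086 with the filter on dim probes, which leaves 37, and -0.25 under median scaling, and -0.080 to 0.033 without 1 array. Over the 37 above background it was -0.13 with the mean of a gene's probes, -0.27 under median scaling, and -0.14 to -0.054 without 1 array.

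Genes near 0 turned sign. Under median scaling these were ATG14 (-0.18), PIK3C3 (-0.19), PINK1 (-0.24), ATG7 (-0.021), CALCOCO2 (-0.034), TAX1BP1 (-0.051) and NBR1 (0.011), with adjusted p from 0.71 to 0.99. Elsewhere they were ATG14 (-0.067) and BNIP3L (0.17) with array weights, PIK3C3 (-0.0010) under cyclic loess and NBR1 (0.042) with the mean of its probes. Without 1 array the ranges crossed 0 for ATG10 (-0.26 to 0.063), ATG13 (-0.020 to 0.098), ATG14 (-0.054 to 0.100), BECN1 (-0.16 to 0.039), NBR1 (-0.099 to 0.041), PIK3C3 (-0.14 to 0.12), PINK1 (-0.086 to 0.090), ULK2 (-0.27 to 0.055) and BNIP3L (-0.31 to 0.26).

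With the replicate number as a block, 0 probes passed over the whole array (4887 at an unadjusted p under 0.05), with 0 autophagy genes higher, 0 lower and 0 of the wider list. Whether the numbers pair the samples is not stated. Deviations of same-numbered arrays from their group means correlated at -0.64, -0.44 and -0.21, and those of differently numbered arrays at -0.53 to 0.64. Deviations within so small a group are not independent, so these values cannot decide the question, and the block fit is not set aside by them. The block left the estimates of ATG5, ATG12 and WIPI2 unchanged, so it adds nothing on the size of an effect. Bead signal limits NBR1, ATG13, MAP1LC3A and TFEB, which lay at or near background.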
